A study of Mus musculus with 9 samples.

Results

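The mitochondrial ribosomal protein genes were described across 9 mouse livers of 3 Snd1 genotypes. They were chosen by name, as the rows whose symbol is Mrpl or Mrps followed by a number and, in a few, a letter a, b or c, with a mean of at least 10 normalized counts over the 9 libraries. Pseudogene names with -ps were left out. The rule gave 77 members of the 19944 genes in the table, 48 with Mrpl names and 29 with Mrps names, and all 77 were among the 15238 genes tested.

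SND1 is a multidomain protein whose Tudor domain binds methylated arginine, and the study asked what that domain contributes to liver transcription. The groups were Snd1 knockout (KO), a knock-in carrying a mutated Tudor domain (KI) and wild type (WT), with 3 livers each. All mice were males 60 days old on normal chow, and the titles name the FVB strain. RNA was extracted from liver tissue and made into stranded, poly(A)-selected mRNA libraries, although the labels name the cell type as hepatocyte. How the knockout allele was built, and which residue the knock-in changes, are not given in the sources used here.

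Mitochondria hold their own ribosome, the mitoribosome, which makes the few membrane subunits of the respiratory chain and ATP synthase that mitochondrial DNA encodes. Its rRNAs are transcribed inside the organelle, while every one of its proteins is encoded in the nucleus, made in the cytosol and imported. Some of these proteins descend from those of the bacterial ribosome and others are found only in mitochondria. Hepatocytes are rich in mitochondria and depend on respiration for gluconeogenesis, urea synthesis and fatty acid oxidation.

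Recovered totals were 59678412 to 66384374 reads per library. Snd1 itself stood at 227, 414 and 359 normalized counts in the KO livers, 5373, 7941 and 5595 in the KI livers and 6951, 8446 and 6512 in the WT livers, so the labels of the KO group matched the targeted gene. Markers of hepatocytes took 5.23% to 8.04% of reads in KO, 5.31% to 8.41% in KI and 7.44% to 9.99% in WT, with all 10 detected in every library. A set of 14 exocrine pancreas markers took 5.52% of reads in KI_3, 0.468% in KI_1 and 1.18% in WT_3, against at most 0.00523% in each of the other 6 libraries, where 3 to 10 of the 14 were at 0, so results without those 3 libraries are given beside the counts below. The p-values set the differences between genotypes against the spread among livers of the same genotype. Nothing in the labels tells which mice were littermates or housed together.

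The members were expressed in every library and their summed share of reads was 0.155%, 0.14% and 0.164% in KO, 0.165%, 0.177% and 0.147% in KI, and 0.167%, 0.163% and 0.169% in WT. These shares overlapped between the genotypes. By subunit, 50 members encode large subunit proteins, 26 encode small subunit proteins and 1, Mrps36, encodes a protein now placed in the 2-oxoglutarate dehydrogenase complex. The 50 include Mrps30 and Mrps18a, which were named for the small subunit but belong to the large one. Proteins of bacterial type number 29 in the large and 16 in the small subunit, and mitochondrion-specific proteins 21 and 10. The genes are spread over 17 chromosomes, with the most, 11, on chromosome 11.

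Levels differed widely between members although their products are built into one particle. The highest mean over the 9 libraries belonged to Mrpl12, the protein of the stalk that recruits translation factors, followed by Mrpl24 and Mrpl30. The lowest belonged to Mrps6, Mrpl33 and Mrps18c. Mrpl12 stood at 4161, 3245 and 3459 normalized counts in the KO livers, 4438, 4281 and 4918 in the KI livers and 5508, 4340.2 and 4748 in the WT livers. Its highest KO liver was below every WT liver. Mrpl24, at the tunnel exit, stood at 2453, 2659 and 2637 in KO, 2951, 2826 and 2982 in KI and 3001, 2759 and 2883 in WT, and Mrpl30 at 2238, 2605 and 2442 in KO, 3016, 2650.2 and 3021 in KI and 2849.7, 2637 and 3067 in WT. At the other end Mrps6 stood at 216, 165 and 154 in KO, 229.7, 247 and 155 in KI and 207, 229 and 179 in WT, Mrpl33 at 238, 322 and 315 in KO, 334, 229 and 271 in KI and 307, 251 and 238 in WT and Mrps18c at 320.5, 285 and 360.1 in KO, 401, 317 and 466 in KI and 379.8, 353 and 447 in WT, and in these 3 the genotypes overlapped. Per kilobase of exon, which allows levels to be compared between genes, the highest were Mrpl12, Mrpl14 and Mrps21 at 2836, 1882 and 1866 normalized counts per kilobase. The lowest were Mrpl33, Mrps25 and Mrps10 at 38.0, 82.2 and 106. These lengths count every annotated exon of GENCODE M21, so a gene with a long, rarely used exon appears lower than its main transcript.

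**Figure D1:**
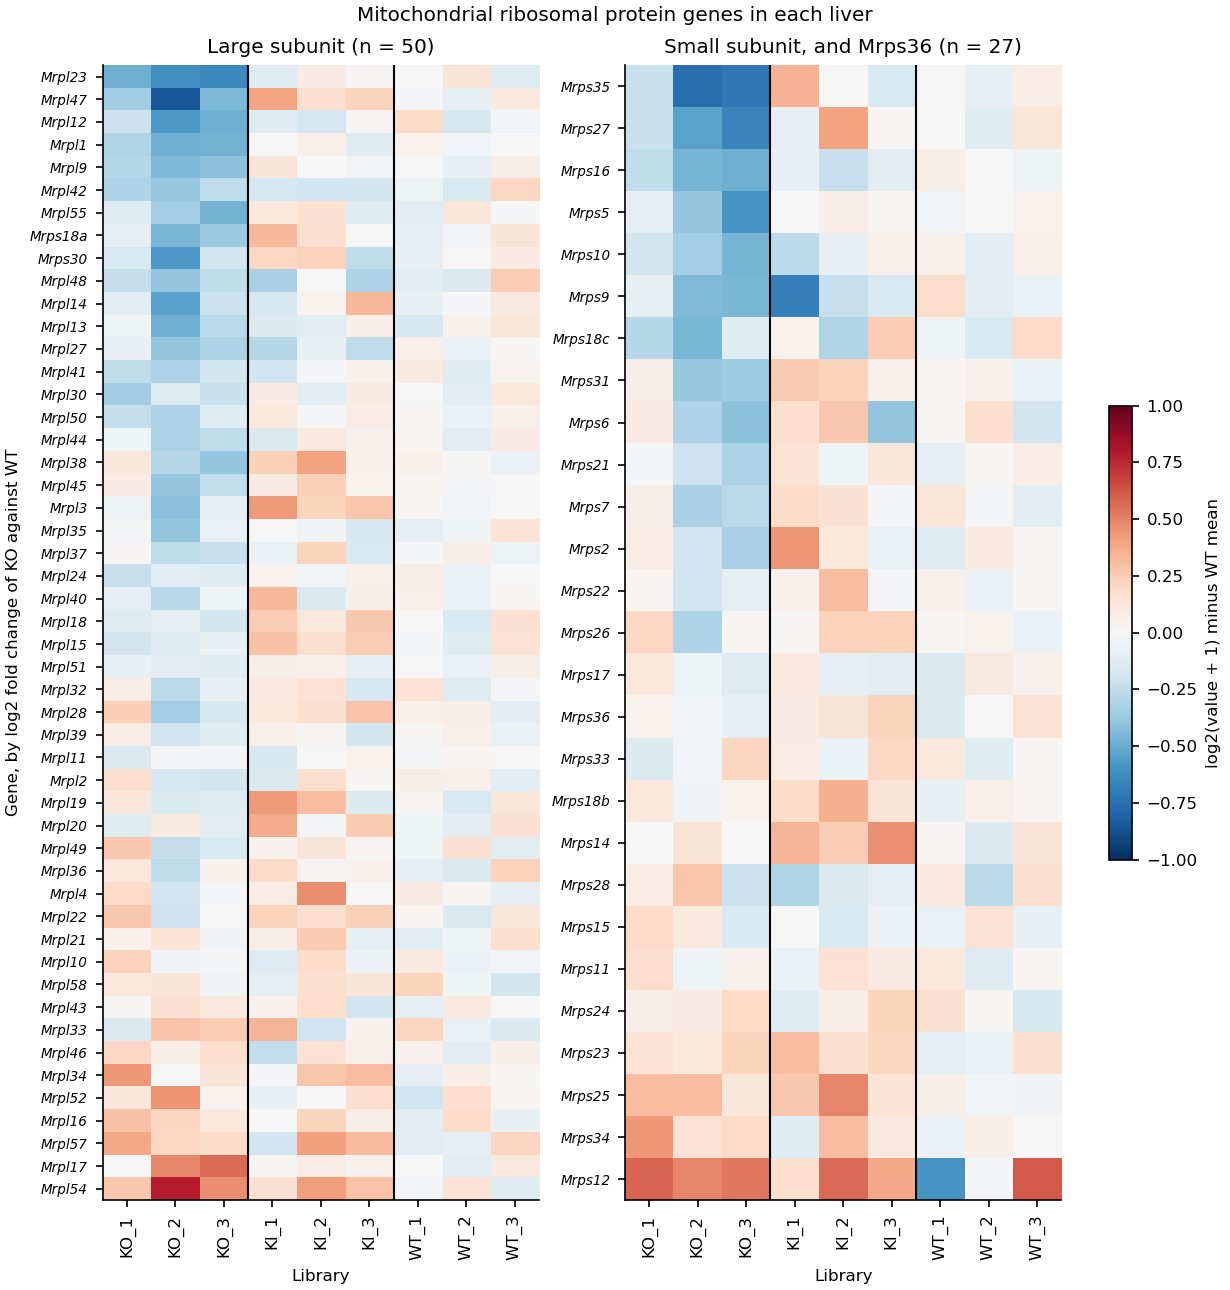
Heat map of the 77 members in the 9 libraries, as log2(value + 1) minus the WT mean of the gene, with large subunit genes on the left and small subunit genes and Mrps36 on the right. Members are ordered by log2 fold change of KO against WT, and blue cells, below the WT mean, are most frequent in KO_2 and KO_3.

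The effect of losing SND1 on the members was read from KO against WT. Of the 77 members 5 fell in KO and 0 rose (limma, adjusted p under 0.05 over all genes tested). They were Mrpl23, Mrpl1, Mrpl9, Mrpl47 and Mrps16, and each fell by 23.3% to 33.2% as fitted on the log2(value + 1) scale. The share of members that fell was 6.49%, against 4.2% of all genes tested, and the share that rose was 0%, against 4.63%. The lower share is near the background, so the count by itself says little about the members as a class. By edgeR on the recovered reads 4 or 5 members fell, depending on the scaling, and by DESeq2 7 fell and 1 rose.

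Mrpl23 and Mrpl47 encode neighbouring proteins at the exit of the tunnel through which the new polypeptide leaves the large subunit. Mrpl23 lies on chromosome 7 (chr7:142532686-142540747, plus strand, GRCm38) and stood at 809, 746 and 729 normalized counts in the KO livers, 1039, 1207 and 1146 in the KI livers and 1138, 1248 and 1040.4 in the WT livers. All KO livers lay below all KI and WT livers, which overlapped each other. The log2 fold change of KO against WT was -0.58 ± 0.12 (SE, limma adjusted p = 0.0139). Mrpl47 lies on chromosome 3 (chr3:32725397-32737605, minus strand) and stood at 595, 421 and 556 normalized counts in the KO livers, 1000.5, 855 and 888 in the KI livers and 753, 716 and 812 in the WT livers. The KO livers were again the lowest, and here the KI livers were all above the WT livers. The log2 fold change was -0.55 ± 0.15 (limma adjusted p = 0.0470).

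Mrpl1 encodes the protein of the L1 stalk, beside the site where spent tRNA leaves, and Mrpl9 encodes another bacterial-type protein of the large subunit. Mrpl1 (chr5:96209493-96266727, plus strand) stood at 1466, 1286 and 1304 normalized counts in the KO livers, 1797, 1866 and 1657 in the KI livers and 1846, 1769 and 1801 in the WT livers. Mrpl9 (chr3:94443318-94451130, plus strand) stood at 1539.5, 1371 and 1412 normalized counts in the KO livers, 2051, 1885 and 1847 in the KI livers and 1884, 1787 and 1967 in the WT livers. In both genes every KO liver was below every KI and WT liver, and the KI and WT livers overlapped. The log2 fold changes were -0.42 ± 0.10 (limma adjusted p = 0.0300) for Mrpl1 and -0.38 ± 0.10 (limma adjusted p = 0.0401) for Mrpl9.

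Mrps16, a bacterial-type protein of the small subunit, was the one small subunit gene called. It lies on chromosome 14 (chr14:20389304-20393634, minus strand) and stood at 959, 829 and 815 normalized counts in the KO livers, 1078, 971 and 1059 in the KI livers and 1187, 1139 and 1100.5 in the WT livers. Here the KI livers lay between the others, above all KO and below all WT livers. The log2 fold change of KO against WT was -0.40 ± 0.11 (limma adjusted p = 0.0497), just inside the threshold.

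**Figure D2:**
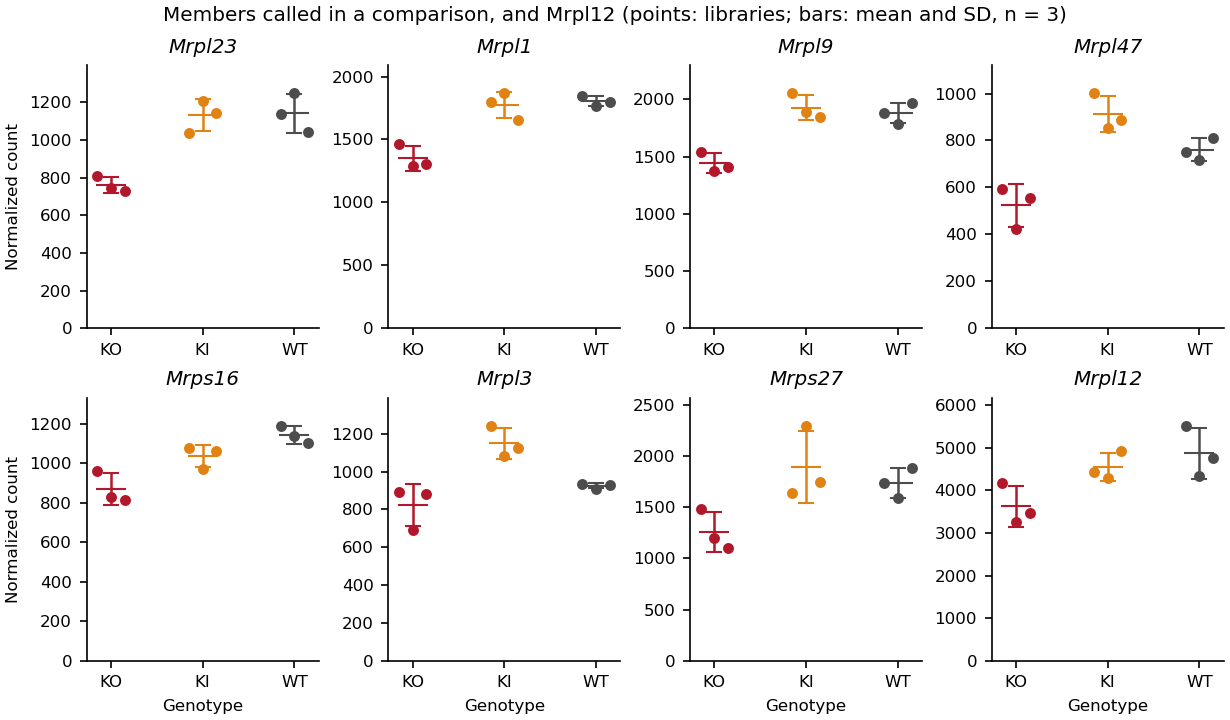
Normalized counts of the 7 members called in any comparison and of Mrpl12, in KO, KI and WT livers, with each point a library and bars the mean and SD (n = 3). In each of the 8 panels the KO points lie below the WT points without overlap.

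Promoters of 3 of these members, and of Mrps27, which passed in KI against KO, are shown so that members that moved together can be compared in sequence. RefSeq windows on GRCm38.p6, from 250 bases before to 50 after the annotated start, were matched by symbol for 68 of the 77 members. Those of Mrpl23 (chr7:142532782-142533081, plus strand), Mrpl47 (chr3:32736706-32737005, minus strand), Mrpl9 (chr3:94443086-94443385, plus strand) and Mrps27 (chr13:99344536-99344835, plus strand) are printed 5′ to 3′ in the sense of the gene. Capitals mark matches on either strand to CCGGAAG (the ETS core bound by NRF2/GABP), GCATGCGC (NRF1), AAGATGGC (YY1) or GGGCGG (SP1), and they are matches of letters only.
Mrpl23: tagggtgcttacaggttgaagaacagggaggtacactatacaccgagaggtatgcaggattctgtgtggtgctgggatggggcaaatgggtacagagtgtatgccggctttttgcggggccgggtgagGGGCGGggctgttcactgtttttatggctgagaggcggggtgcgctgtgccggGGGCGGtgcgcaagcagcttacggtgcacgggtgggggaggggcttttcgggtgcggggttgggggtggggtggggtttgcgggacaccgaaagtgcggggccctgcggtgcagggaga
Mrpl47: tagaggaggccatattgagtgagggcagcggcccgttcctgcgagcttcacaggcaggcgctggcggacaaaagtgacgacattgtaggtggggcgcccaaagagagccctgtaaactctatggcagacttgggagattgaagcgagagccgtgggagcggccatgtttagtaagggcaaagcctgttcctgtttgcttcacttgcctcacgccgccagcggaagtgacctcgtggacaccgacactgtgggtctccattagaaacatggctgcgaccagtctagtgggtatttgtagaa
Mrpl9: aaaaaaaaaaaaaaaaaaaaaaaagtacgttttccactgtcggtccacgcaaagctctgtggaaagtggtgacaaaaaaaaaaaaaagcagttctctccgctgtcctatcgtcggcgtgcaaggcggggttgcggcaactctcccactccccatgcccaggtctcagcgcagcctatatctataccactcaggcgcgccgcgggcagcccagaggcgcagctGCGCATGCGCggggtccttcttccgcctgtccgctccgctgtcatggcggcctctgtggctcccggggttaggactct
Mrps27: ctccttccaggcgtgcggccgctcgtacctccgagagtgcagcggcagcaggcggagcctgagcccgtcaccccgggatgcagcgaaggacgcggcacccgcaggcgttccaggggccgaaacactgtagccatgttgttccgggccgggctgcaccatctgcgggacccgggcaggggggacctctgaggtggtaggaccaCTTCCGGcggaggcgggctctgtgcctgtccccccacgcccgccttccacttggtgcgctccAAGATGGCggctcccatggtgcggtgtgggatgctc
Mrpl23 held 2 SP1 matches and Mrpl47 none of the 4 motifs. The RefSeq windows of both lie wholly inside the GENCODE genes, downstream of the GENCODE starts. The sequence before those GENCODE starts was therefore not searched. Mrpl9 held a palindrome that reads as NRF1 on both strands, and Mrps27 held 1 ETS and 1 YY1 match near its start.

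Some genes have several windows (74 for the 68 members), and a gene was counted if any of its windows held the motif. Of the 68 members 25 (36.8%) had the ETS core, against 9.93% of all 27025 genes with a window and 19% of the 10822 tested ones. YY1 was present in 12 (17.6%, against 3.19% and 4.99%) and NRF1 in 8 (11.8%, against 3.05% and 5.51%). SP1 was present in 34 (50%, against 38.2% and 65.2%), CCAAT in 26 (38.2%, against 41.1% and 43.1%), the E-box CACGTG in 5 (7.35%, against 8.09% and 11.4%) and TATAAA in 5 (7.35%, against 15.7% and 9.64%). NRF1 and NRF2/GABP are transcription factors long known to bind genes of mitochondrial biogenesis. In the windows nearest the GENCODE start of the 7 members called in any comparison no motif was common to all: SP1 was found in Mrpl1, Mrpl23 and Mrps16, the ETS core in Mrpl3 and Mrps27, CCAAT in Mrpl3 and Mrps16, NRF1 in Mrpl9 and YY1 in Mrps27. The window of Mrpl1, like those of Mrpl23 and Mrpl47, lies inside the GENCODE gene. Mrpl4, Mrpl13, Mrpl15, Mrpl19, Mrpl38, Mrpl54, Mrps28, Mrps34 and Mrps35 had no matched window.

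Members just outside the threshold lay on both sides. Mrps35, a mitochondrion-specific small subunit protein, stood at 901, 623 and 638 in KO, 1333, 1045 and 943 in KI and 1054, 991 and 1106 in WT (log2 fold change of KO against WT -0.56, limma adjusted p = 0.0719). Mrpl12, with the values above, had -0.43 (limma adjusted p = 0.0701), and Mrps27, which carries pentatricopeptide repeats, had -0.47 (limma adjusted p = 0.0923). In these 3 genes all KO livers were below all WT livers, but none passed. On the other side stood Mrpl54, with 628, 895 and 718 in KO, 576, 693 and 632 in KI and 509, 576 and 479 in WT, where the KO livers were all above the WT livers (log2 fold change 0.51, limma adjusted p = 0.0716). Mrpl17, another tunnel exit protein, stood at 1738, 2421 and 2569 in KO, 1768, 1826 and 1783 in KI and 1739.9, 1611 and 1851 in WT (log2 fold change 0.35, limma adjusted p = 0.158), and its KO and WT livers overlapped through KO_1.

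Over the 77 members the log2 fold changes of KO against WT were small, from -0.58 to 0.53, with a median of -0.10 against 0.00 for all genes tested. Negative values were seen in 53 members and positive ones in 24. None reached a 1.5-fold difference in either direction, whereas 23.8% of all genes tested did. The 78 cytosolic ribosomal protein genes likewise had 53 negative values, 25 positive ones and 0 at 1.5-fold. Negative values made up 68.8% of the members, against 73.1% of 26 mitoribosome assembly factors and 72.2% of 18 mitochondrial translation factors. All KO livers lay below all WT livers in 22 members, which is 28.6% of them against 14.2% of all genes tested. In the cytosolic set the count was 13 of 78. The opposite held in 3 members, Mrpl54, Mrps25 and Mrps34, against 15% of all genes tested. The members are set beside all genes here as a description and not as a test of the list.

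The KO livers differed among themselves. The median deviation of the members from their WT mean was 0.01 for KO_1, -0.20 for KO_2 and -0.13 for KO_3, against 0.05, 0.13 and 0.04 for KI_1, KI_2 and KI_3. The WT libraries, which enter that mean themselves, had 0.00, -0.04 and 0.02. Over all genes tested the same medians lay between -0.01 and 0.01. KO_2 and KO_3 each had 57 of 77 members below the WT mean, and KO_1 had 37. WT_1, WT_2 and WT_3 themselves had 35, 50 and 29 members below it. Of the 15238 genes tested 7628, 7474 and 7470 were below it in KO_1, KO_2 and KO_3. In the 5 called members KO_1 was also below every WT liver, but these members were picked by a test on the same values. The spread within a group was narrower for the members than for genes at large, with a median SD of log2 values of 0.153 in KO, 0.123 in KI and 0.115 in WT, against 0.269, 0.226 and 0.192 for all genes tested. These sets were not matched for count level, and the part of count level in this difference was not tested. Related sets also had a small spread. The median SE of the log2 fold changes of KO against WT was 0.129 for the members and 0.209 for all genes tested. It was 0.142 for the cytosolic ribosomal protein genes, 0.157 for the assembly factors and 0.154 for the translation factors.

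**Figure D3:**
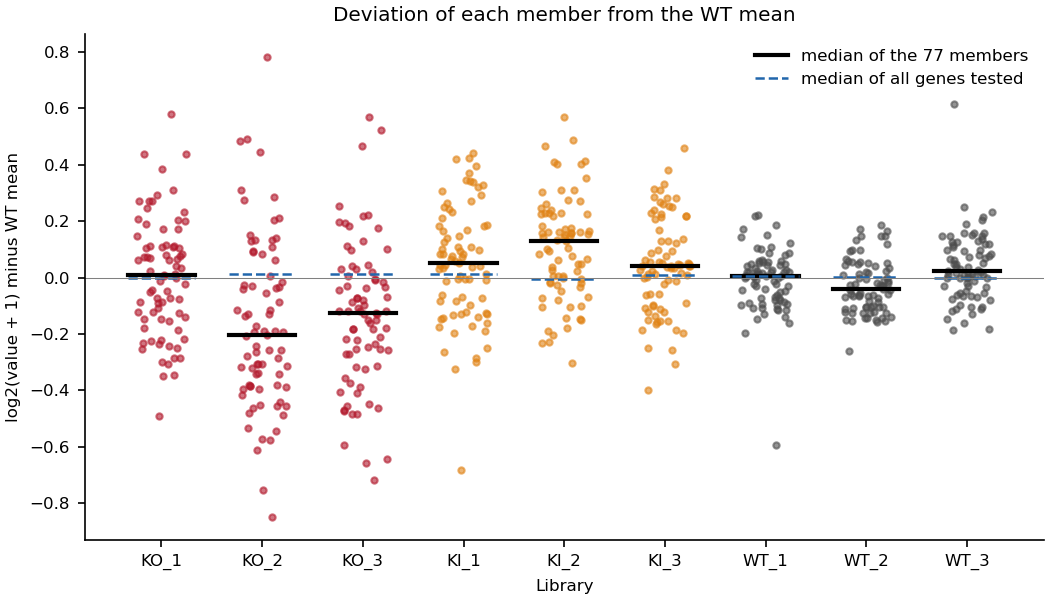
Deviation of each member from its WT mean, as log2(value + 1), in each library, with a point per gene, a black bar at the median of the members and a dashed bar at the median of all genes tested. The black bars of KO_2 and KO_3 lie at -0.20 and -0.13, while that of KO_1 lies at 0.01.

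By role, the members that fell lay in several regions of the particle. The 29 large subunit members of bacterial type held 4 of the 5 that fell, at a median of -0.09, and the 21 mitochondrion-specific large subunit members held 0, at a median of -0.16. The small subunit had a median of -0.06, with 1 of 16 bacterial-type members and 0 of 10 mitochondrion-specific members fallen. The 6 genes of the tunnel exit (Mrpl17, Mrpl22, Mrpl23, Mrpl24, Mrpl45 and Mrpl47) had 2 fallen and a median of -0.17. The 4 stalk genes (Mrpl1, Mrpl10, Mrpl11 and Mrpl12) had 1 fallen and a median of -0.24, and the 4 around the peptidyl transferase centre (Mrpl2, Mrpl3, Mrpl16 and Mrpl27) had 0 and -0.12. In 6 small subunit genes around the decoding site and the mRNA path (Mrps2, Mrps5, Mrps7, Mrps11, Mrps12 and Mrps24) 0 fell and the median was -0.04. Differences between these classes were not tested. Mrps30 stood at 869, 651 and 854 in KO, 1121, 1136 and 814 in KI and 917, 968 and 1022 in WT, and Mrps18a at 1272, 985 and 1042 in KO, 1691, 1510.5 and 1353 in KI and 1262, 1323 and 1478 in WT. In Mrps30 the KO livers were all below the WT livers, and in Mrps18a KO_1 lay among them. Mrps30 and Mrps18a had log2 fold changes of -0.30 (limma adjusted p = 0.284) and -0.31 (limma adjusted p = 0.189), and Mrps36, at 559.8, 537 and 515 in KO, 579, 599 and 637 in KI and 494, 546 and 605 in WT, had -0.03 (limma adjusted p = 0.928).

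The count of fallen members depended on single libraries. Without KO_1 there were 10 lower and 2 higher, without KO_2 0 and without KO_3 1. Without WT_1 or WT_2 there were 0, without WT_3 1, and without KI_1, KI_2 or KI_3, which only lend their spread, 3, 2 and 2. Without the 3 libraries with pancreatic transcripts there were 0, in a fit in which 30 of all genes were called. The log2 fold changes moved less: that of Mrpl23 stayed between -0.65 and -0.52 over 22 alternatives and passed in 18, and Mrpl1, Mrpl9, Mrpl47 and Mrps16 stayed negative in all 22 and passed in 14, 11, 9 and 9. Mrpl23 failed to pass without KO_2, WT_1 or WT_2, Mrpl1 without KO_2, KO_3 or any WT library, and Mrpl9 in all single-library fits but those without KO_1 or KI_1, while Mrpl47 and Mrps16 passed in the fit without KO_1 alone.

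In bulk tissue, less RNA per cell and fewer cells of a type cannot be told apart. Markers of macrophages and Kupffer cells took 0.0396%, 0.0349% and 0.0778% of reads in KO_1, KO_2 and KO_3. They took 0.0286% to 0.0431% in KI and 0.0241% to 0.0435% in WT, so only KO_3 lay above the WT range among the KO livers. Of these markers 3 of 10 (Mpeg1, Marco and Cd163) rose in KO. The other 7 did not pass, from -0.53 for Timd4 to 0.35 for Cd68, and 4 of them (Timd4, Clec4f, Adgre1 and Cd5l) were negative. Markers of neutrophils and monocytes took 0.000397%, 0.00161% and 0.00324% in KO_1, KO_2 and KO_3, and at most 0.000729% in KI and 0.000597% in WT, with 1 of 7 tested, Mmp8, risen in KO. Among 5 markers of bile duct cells Sox9 rose in KO, with a summed share of 0.000744% to 0.00118% in KO, 0.000871% to 0.00102% in KI and 0.000905% to 0.000976% in WT. Of 6 endothelial, 6 stellate and 5 tested lymphocyte markers 0 were called. Without the 3 libraries with pancreatic transcripts none of these 5 marker calls held (limma adjusted p = 0.0817 for Mpeg1, 0.215 for Marco, 0.211 for Cd163, 0.152 for Mmp8 and 0.131 for Sox9). Leaving out 1 library at a time, Mpeg1 held throughout. Marco failed without KO_3, KI_3 or any WT library, Cd163 without these or KO_2, Mmp8 without KO_2, KO_3, KI_1, KI_3 or any WT library, and Sox9 without KO_2, KO_3 or any WT library. In KI against KO Mpeg1 and Sox9 were lower (limma adjusted p = 0.00963 and 0.0453), Mpeg1 in 21 of 22 alternatives and Sox9 in 6. The part of these cells in the members' values was not tested.

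The knock-in was then compared with WT. No member passed (limma, 0 of 77, against 0.0263% of all genes tested), and edgeR and DESeq2 on the recovered reads also called 0. At an unadjusted p under 0.05 there were 5 members, all higher in KI, which were Mrps14, Mrpl3, Mrpl15, Mrps25 and Mrps18b. Of the 15238 genes tested 1769 were under that line, 807 of them higher in KI. Mrps14, a bacterial-type protein of the small subunit head, stood at 1518, 1420.1 and 1646 normalized counts in KI and 1209, 1087 and 1308 in WT. The KI livers were all above the WT livers, with a log2 fold change of 0.35 ± 0.11 (limma adjusted p = 0.261). Mrpl3, a protein that reaches towards the peptidyl transferase centre, stood at 1241, 1081 and 1124 in KI and 936, 909 and 930.2 in WT, with 0.31 ± 0.13 (limma adjusted p = 0.383). In Mrpl15 the KI livers stood at 3216, 2932 and 3123 and the WT livers at 2585, 2407 and 2904, in Mrps25 at 571, 665 and 521 and 494, 464 and 463, and in Mrps18b at 2516, 2828 and 2427 and 2106, 2293 and 2253, so that the KI livers were above all WT livers in each. The log2 fold changes of Mrpl15, Mrps25 and Mrps18b were 0.23, 0.30 and 0.22, with limma adjusted p from 0.416 to 0.430.

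The 5 members with the smallest p among those lower in KI did not pass either. Mrps9 stood at 483, 662 and 696 in KI and 875, 721 and 740.0 in WT, with KI_1 far below the other KI livers (log2 fold change -0.36 ± 0.17, limma adjusted p = 0.473). Mrpl27, Mrpl42 and Mrpl48 stood at 1389, 1613 and 1417, 1762, 1747 and 1751 and 835, 1046 and 845 in KI and at 1758, 1622 and 1704, 1923, 1789 and 2293 and 971, 947 and 1244 in WT, overlapping in Mrpl48. The log2 fold changes of Mrpl27, Mrpl42, Mrpl48 and Mrps16 were -0.20, -0.18, -0.21 and -0.14. Over the 77 members the log2 fold changes ran from -0.36 to 0.37 with a median of 0.06, against 0.00 for all genes tested, and 56 were positive and 21 negative. All KI livers lay above all WT livers in 12 members (15.6%, against 9.47% of all genes) and below them in 4 (5.20%, against 10.2%). The 95% intervals of all 77 fold changes lay within 2-fold, between -0.74 and 0.95 on the log2 scale. Each interval was taken singly, without correction for the number of members.

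The knock-in was also set against the knockout. The 3 comparisons share libraries, so their values are given side by side and not as independent results. Of the 77 members 6 were higher in KI (7.79%, against 3.6% of all genes tested) and 0 lower (against 4.85%). They were Mrpl47, Mrpl23, Mrpl9, Mrpl1, Mrpl3 and Mrps27. Mrpl47 had the largest difference, with the counts given above and a log2 fold change of 0.81 ± 0.15 (limma adjusted p = 0.0106). Mrpl23 had 0.57 (limma adjusted p = 0.0162), Mrpl9 0.42 (limma adjusted p = 0.0300) and Mrpl1 0.39 (limma adjusted p = 0.0398).

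Mrpl3 (chr9:105053239-105079888, plus strand) stood at 1241, 1081 and 1124 normalized counts in KI and 893, 693 and 880.4 in KO, with all KI livers above all KO livers. Its log2 fold change was 0.49 ± 0.13 (limma adjusted p = 0.0409), while that of KO against WT was -0.18 (limma adjusted p = 0.419). Mrps27 (chr13:99344786-99415562, plus strand, promoter printed above) stood at 1638, 2293 and 1748 in KI, 1482, 1197 and 1099 in KO and 1739, 1591 and 1883 in WT. KI_2 was the highest of the 9 and the KI livers spread widely, from above KO_1 upwards (log2 fold change 0.58 ± 0.16, limma adjusted p = 0.0477). Mrps35 and Mrpl15, at 0.62 and 0.36, came close without passing (limma adjusted p = 0.0530 and 0.0547). The most negative were Mrpl17, Mrpl54 and Mrps28 at -0.30, -0.23 and -0.22, none of which passed.

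Across the members the median log2 fold change of KI against KO was 0.19, against 0.01 for all genes tested, with 58 positive and 19 negative values. All KI livers lay above all KO livers in 21 members (27.3%, against 12.3% of all genes), and all KI below all KO in 0 (against 14.1%). At an unadjusted p under 0.05 there were 23 of the 77 members, all higher in KI. Of the 15238 genes tested 3788 were under that line, 1801 of them higher in KI. The count of 6 became 16 (15 higher and 1 lower) without KO_1, 1 without KO_2 and 2 without KO_3. It was 2 without KI_1 or KI_2 and 1 without KI_3, and 2, 3 and 3 without WT_1, WT_2 and WT_3. Without the 3 libraries with pancreatic transcripts it was 0, in a fit with 1 KI library that called 4 of all genes and gave Snd1 itself an adjusted p of 0.0504 by limma. The call of Mrpl47 held in 20 of 22 alternatives, among them every fit without 1 library, and that of Mrpl23 in 18, failing without KO_2 or KI_3, and those of Mrpl9, Mrpl3, Mrpl1 and Mrps27 in 13, 11, 10 and 8. The last 3 held without KO_1 but without no other single library, and Mrpl9 held without KO_1, WT_2 or WT_3.

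**Figure D4:**
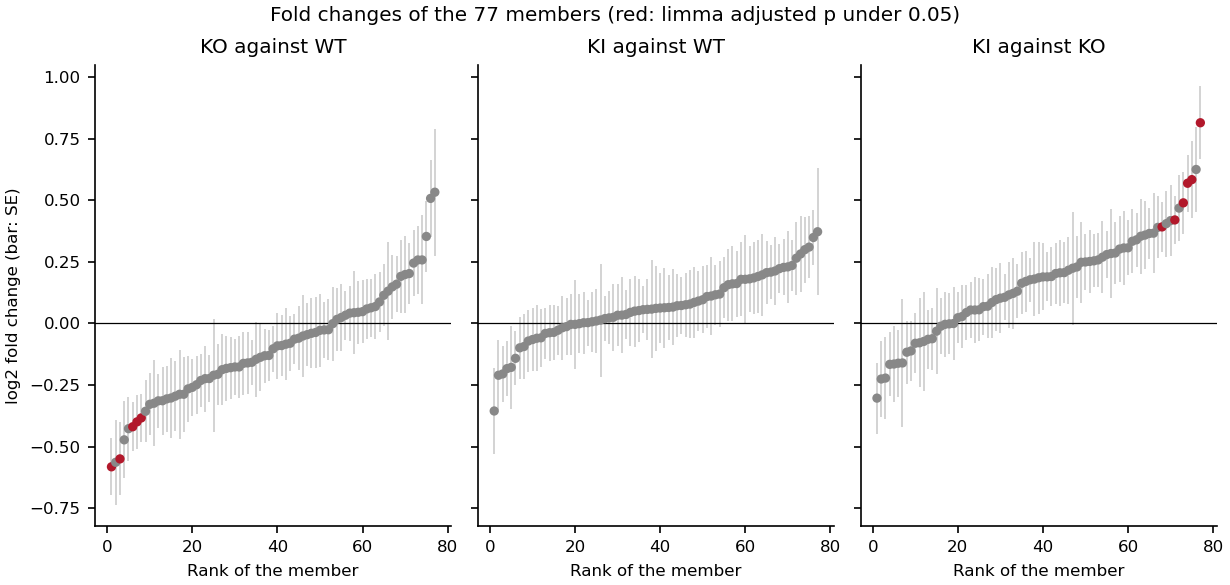
Log2 fold changes of the 77 members with their SE, ranked within KO against WT, KI against WT and KI against KO, with members past an adjusted p of 0.05 in red. The red points are 5 at the low end for KO against WT, none for KI against WT and 6 at the high end for KI against KO.

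Many members start close to another gene that runs the opposite way. Only head-to-head starts that do not overlap were counted, which leaves out Mrpl46 and Mrps11. A protein-coding gene on the other strand began within 1000 bases upstream in 18 members (23.4%), against 9.84% of 12997 tested protein-coding genes. Mrps12, a protein of the decoding centre, and Sars2, the mitochondrial seryl-tRNA synthetase, form such a pair, with starts 172 bases apart. Mrps12 stood at 527, 495 and 507 normalized counts in the KO livers, 395, 523 and 458 in the KI livers and 233, 347 and 539.7 in the WT livers, and the WT livers alone covered the whole range (log2 fold change of KO against WT 0.53 ± 0.26, limma adjusted p = 0.236). Sars2 stood at 237, 170.2 and 195 in KO, 163, 219 and 199.5 in KI and 400.0, 375 and 362 in WT, with every KO and KI liver below every WT liver. It fell in KO (-0.92 ± 0.18, limma adjusted p = 0.0140) and had -0.97 in KI (limma adjusted p = 0.0980). Mrps34 and Eme2, 29 bases apart, had log2 fold changes of KO against WT of 0.26 and 1.05, of which that of Eme2 passed (limma adjusted p = 0.0364), and Mrps27 and Ptcd2, 81 bases apart, had 0.58 and 0.61 for KI against KO, both past the threshold (limma adjusted p = 0.0477 and 0.0145). For KI against KO, Mrps18b and Ppp1r10, 45 bases apart, had 0.19 and 1.10. Mrpl41 and Pnpla7, 935 bases apart, had 0.19 and -0.51, in opposite directions. Ppp1r10 and Pnpla7 passed (limma adjusted p = 0.01025 and 0.0376), while Mrps18b and Mrpl41 did not.

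Some counts may hold reads of other genes. The strand setting of the authors' counting is not given in the sources used here, and exons of 27 members overlap exons on the opposite strand. Exons of 7 members overlap those of another gene on the same strand. Among the called members Mrpl47 overlaps Actl6a by 452 and Ndufb5 by 616 bases, Mrps27 overlaps 6430562O15Rik by 506, Mrpl9 overlaps Oaz3 by 157, and Mrpl3 overlaps Gm47106 by 24 and, on its own strand, Gm38077 by 248. Mrps25 shares 4590 of 6576 exon bases with Nr2c2. Mrps34 shares 1309 of 2064 exon bases with Mapk8ip3 on the opposite strand and 763 with Nme3 on its own strand. The near copy Mrpl23-ps1 stood at 47.7, 43.5 and 35.3 normalized counts in KO, 51.5, 67.6 and 87.4 in KI and 62.4, 50.1 and 68.1 in WT and thus far below Mrpl23 itself, and its log2 fold change of KO against WT was -0.50 (limma adjusted p = 0.341).

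The rest of the mitoribosome and its surroundings give context. Proteins with other names, Dap3, Ptcd3, Aurkaip1, Chchd1 and Gadd45gip1, had log2 fold changes of KO against WT of -0.11, -0.26, -0.08, 0.01 and 0.31, and 0 of 5 were called in any comparison. Of the 2 mitochondrial rRNAs, which poly(A) selection captures only in part, 1 fell in KO. mt-Rnr2, the large subunit rRNA, stood at 3524, 3166 and 3647 normalized counts in the KO livers, 5790.2, 5621 and 5571 in the KI livers and 8434, 4983 and 4769 in the WT livers, with WT_1 far above the other WT livers. It fell in KO (-0.77 ± 0.19, limma adjusted p = 0.0348), by 0.50 without WT_1 (limma adjusted p = 0.0492), and it no longer passed without KO_2, KO_3, KI_1, KI_3 or WT_2. It was higher in KI than in KO (0.72, limma adjusted p = 0.0454), but missed the threshold by edgeR. mt-Rnr1, the small subunit rRNA, stood at 2286, 1942 and 2003 in KO, 3493, 3212 and 3059 in KI and 6249, 2830.5 and 2649 in WT and did not pass (log2 fold change of KO against WT -0.80, limma adjusted p = 0.0962). Of the 13 mRNAs encoded by mitochondrial DNA 0 were called, with medians of -0.26 in KO and -0.27 in KI against WT.

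Among 26 assembly factors 1 rose in KO, the helicase gene Ddx28, at 709, 1609.5 and 1383 in KO and 557, 705 and 473 in WT (limma adjusted p = 0.0465), with KO_1 near the WT livers. The GTPase gene Noa1 was higher in KI than in KO (0.66, limma adjusted p = 0.0294). Of 18 translation factors 0 were called, and of 20 mitochondrial tRNA synthetases Sars2 was the one called. Of 12 genes of mitochondrial DNA transcription and upkeep Polg2, the accessory subunit of the DNA polymerase, fell in KO, at 186, 138 and 124 in KO, 274, 265 and 345 in KI and 519, 371 and 365 in WT (log2 fold change -1.48, limma adjusted p = 0.00363), and was higher in KI than in KO (limma adjusted p = 0.0222). The 78 cytosolic ribosomal protein genes had 2 lower and 0 higher in KO, at a median of -0.07.

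Genes that regulate mitochondria or respond to their stress were also examined. Among 9 regulators of mitochondrial biogenesis Pprc1 rose in KO (0.95, limma adjusted p = 0.0348), and in KI against KO the nuclear receptor gene Esrra was higher (0.73, limma adjusted p = 0.0291) and the coactivator gene Ppargc1a lower (-1.37, limma adjusted p = 0.0295). Among 13 genes of the mitochondrial stress response, Atf5, a transcription factor of that response, rose in KO at 7216, 9761 and 9106 in KO, 3701, 4556 and 3731 in KI and 4584, 4084 and 4860.4 in WT (limma adjusted p = 0.00425). The protease subunit gene Clpx rose as well (0.73, limma adjusted p = 0.0130), and the chaperonin gene Hspe1 fell (-0.53, limma adjusted p = 0.0487). In KI against KO Hspe1 and Hspd1 were higher (1.01 and 0.70) and Atf5, Clpx and Trib3 lower (-1.12, -0.96 and -2.30). Leaving out 1 library at a time, the calls of KO against WT held throughout for Polg2 and Atf5 and failed without WT_1 or WT_3 for Clpx, without KO_2, WT_1 or WT_2 for Sars2, and in most such fits for Ddx28, Pprc1 and Hspe1. In KI against KO they held throughout for Atf5, Clpx and Hspe1. They failed in most such fits for mt-Rnr2, Trib3 and Esrra, and in some for Noa1, Polg2, Ppargc1a and Hspd1. Without the 3 libraries with pancreatic transcripts none of the calls for mt-Rnr2 or for the assembly, synthetase, Polg2, regulator and stress genes held (limma adjusted p from 0.0912 to 0.52).

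**Figure D5:**
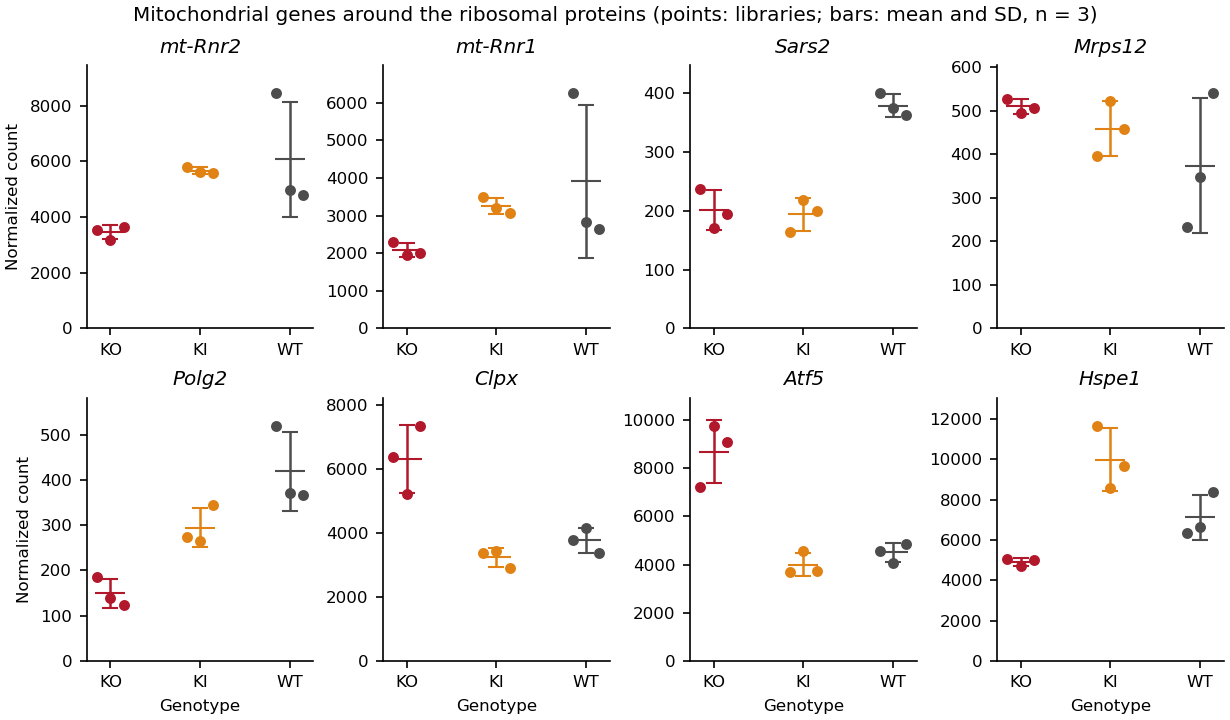
Normalized counts of both mitochondrial rRNAs, of Sars2 and its neighbour Mrps12, and of Polg2, Clpx, Atf5 and Hspe1 in KO, KI and WT livers, with points for libraries and bars for mean and SD (n = 3). WT_1 lies apart from the other WT points for mt-Rnr1 and mt-Rnr2, and the KO points lie apart from the WT points in every panel but that of Mrps12.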

How the data were processed

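Liver RNA of 9 mice was sequenced as stranded mRNA. The authors deposited 1 table of signal values, called normalized counts, for 19944 genes. The submitters' processing notes name TopHat2, Bowtie2 and featureCounts, and the build GRCm38. Versions, annotation, strand setting, filter and scaling tool are not given in the sources used here. The deposited signal values are read counts over library size factors between 0.892 and 1.105: at least 99.9% of values per library came out whole (tolerance 0.0051). No column lacked a sample.

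Values were tested as log2(value + 1) in the 15238 genes with a mean of at least 10, with limma 3.58.1 in R 4.3.3 (variance trend, 1 mean per genotype, 6 residual degrees of freedom, two-sided), and p-values were adjusted by Benjamini-Hochberg over all genes tested. Adjusted p under 0.05 counted as called. Alternatives, 22 in all, included edgeR 4.0.16 and DESeq2 1.42.0 on the recovered reads, which called 1210 (TMM scaling) and 2292 of all genes for KO against WT. The procedure was tested on simulated data. Other computing used Python 3.11 with numpy 2.4.6, pandas 2.3.3 and matplotlib 3.10.9. GENCODE M21 gave gene positions, and all 77 members matched.

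Named members are Snd1, the called members per comparison (or the 5 smallest p per direction where under 5 were called), the 3 largest and smallest fold changes, the 3 highest and lowest means, Mrps30, Mrps18a, Mrps36 and Mrpl12, and called members of 18 gene lists. Other members and neighbouring genes were picked with their values in view. The members and lists were chosen with earlier results of these data known.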

Additional observations from a re-analysis of the deposited data

How the results depend on the processing

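With 3 libraries a group, small differences pass or miss on the spread of single livers. Members called for KO against WT, 5 in the fit reported, were 2 with no filter on low values, 8 by DESeq2 and 1 when only the 2 groups compared were fitted. A covariate of the log2 summed normalized counts of the pancreas markers left 1. Members called numbered 0 without the 3 libraries with pancreatic transcripts, and 0 to 12 leaving out a library at a time. For KI against KO, with 6, they were 11 by DESeq2, 2 with only the 2 groups, 0 without the 3 libraries, 0 with the covariate and 1 to 16 leaving out a library. The cause was not tested, except that fits without libraries have fewer samples. For KI against WT 0 were called under every one of the 22 alternatives, and the median moved to 0.12 without the 3 libraries, where Mrpl48 reversed to 0.13 from KI_2 alone. The medians kept their sign under every alternative, from -0.16 to -0.07 for KO against WT, 0.04 to 0.12 for KI against WT and 0.11 to 0.23 for KI against KO. With the title's replicate number as a replicate block, 8 members were called for KO against WT (7 lower, 1 higher), 0 for KI against WT and 6 for KI against KO, but same-numbered libraries deviated together in part only (correlations of -0.14 to 0.57 over genes) and not every library correlated best with its own number, so the numbers were not treated as pairs.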
